A study of Homo sapiens with 6 samples.

Results

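The genes described here are 10 components of the pathway that makes and uses small RNAs: DROSHA, DGCR8, XPO5, DICER1, TARBP2, PRKRA, AGO1, AGO2, AGO3 and AGO4. They were taken by gene symbol from a table of 17269 genes, and all 10 had a row and passed the filter on low counts that left 13104 genes for testing. The table holds poly(A) RNA sequencing of 6 libraries from HCT116, a widely used cell line derived from a human colorectal tumour. The groups are 3 libraries titled shPRSS22, with the genotype PRSS22 knockdown, and 3 titled shCtrl, with the genotype WT. All were grown in the same medium. The titles give the controls a hairpin name whereas the genotype field and the design text call them wild type. The hairpin sequences, how they were delivered, the time after delivery, the number of clones and whether replicates were separate cultures are not stated in the labels, so p-values measure only the spread between these libraries, which may be technical.

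In the canonical pathway a primary microRNA transcript is cut in the nucleus by the Microprocessor, made of the nuclease DROSHA and its RNA-binding partner DGCR8. Exportin 5, the product of XPO5, carries the hairpin to the cytoplasm, where the nuclease DICER1 removes the loop with the help of the double-stranded RNA-binding proteins TRBP (TARBP2) and PACT (PRKRA). The duplex is loaded into an Argonaute protein, which keeps a single strand and uses it to find messenger RNAs. Short hairpin RNAs, the tool used in this study, enter the same route, commonly at the export or Dicer step. Messenger RNA of these genes was measured, not small RNAs or proteins.

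PRSS22, the targeted gene, stood at 3.09, 3.16 and 2.61 CPM in shPRSS22 replicates 1 to 3, against 10.1, 9.38 and 10.1 CPM in shCtrl replicates 1 to 3, where CPM is the count per 1000000 of the scaled library total. Library totals ran from 14920523 to 15466647 counts. Epithelial markers were present at a summed 5662 to 5873 TPM in shPRSS22 and 5725 to 5935 TPM in shCtrl libraries. Of 8 tested epithelial markers 2 were called higher and 1 lower, where 39.1% of all tested genes were called. The summed level of intestinal differentiation markers was higher in all 3 shPRSS22 libraries, at 59.1 to 70.7 TPM, against 46.2 to 49.4 TPM in shCtrl. Most counts of that list were of CA2, with 680, 699 and 679 in shPRSS22 replicates 1 to 3, against 529, 551 and 574 in shCtrl replicates 1 to 3. KRT20 had 53, 23 and 24 counts, against 13, 15 and 12. The other markers did not share the rise in shPRSS22 replicates 2 and 3, where all but CA1 had no count. Of 9 markers of that list in the table only 2 were tested, and both were called higher. ShPRSS22 replicate 1 stood further apart: FABP1, SLC26A3 and CEACAM7 had 13, 16 and 16 counts there and 0 in each of the other 5 libraries. Of 11 fibroblast, immune and endothelial markers in the table only CDH5 had no count in any library, and the list summed to 27.1 to 32.5 TPM in shPRSS22 and 23.6 to 26.8 TPM in shCtrl. COL1A1 had 520, 442 and 434 counts in shPRSS22 replicates 1 to 3, against 473, 461 and 366 in shCtrl replicates 1 to 3. CD68 had 284, 290 and 235, against 221, 237 and 214. Of 3 tested markers of this list 1 was called higher and none lower. The mean log2 level of 14 mitosis genes, centred on the 6 libraries, was 0.34, 0.33 and -0.22 in shPRSS22 replicates 1 to 3 and -0.14, -0.024 and -0.28 in shCtrl replicates 1 to 3. Of these 14 genes 4 were called higher and none lower, where 19.9% of all tested genes were called higher. The part of these differences in the results below was not tested. The fold changes, the counts of calls, the Argonaute shares and the ratios of DROSHA to DGCR8 and of DICER1 and PRKRA to the summed partners were also computed without each library.

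The changes among the 10 genes were small and ran in both directions. DICER1, DROSHA, DGCR8 and AGO4 fell in shPRSS22, PRKRA and AGO2 rose, and TARBP2, XPO5, AGO1 and AGO3 did not pass an adjusted p of 0.05 (edgeR quasi-likelihood test, adjusted over all 13104 genes). That is 6 of 10 genes called, 2 higher and 4 lower, where 39.1% of all tested genes were called, 19.9% higher and 19.3% lower. Shifts of this size were common: the median absolute log2 fold change was 0.16 over the 10 genes and 0.14 over all tested genes. The groups did not overlap for 7 of the 10 genes, 3 above and 4 below, as for 48.6% of all tested genes, 24.2% above and 24.3% below. Of the 6 calls only that of DICER1 held without any 1 of the 6 libraries, while 25.3% of all tested genes were called throughout. The number called was 3 when shCtrl replicate 2 or shPRSS22 replicate 2 was dropped and 4 or 5 when any other library was. DESeq2 called only DICER1 and AGO2 among the 10, where it called 26.7% of the 12705 genes to which it gave an adjusted p. Its adjusted p was 0.0996 for DROSHA, 0.0773 for DGCR8, 0.0676 for PRKRA and 0.0857 for AGO4.

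**Figure D1:**
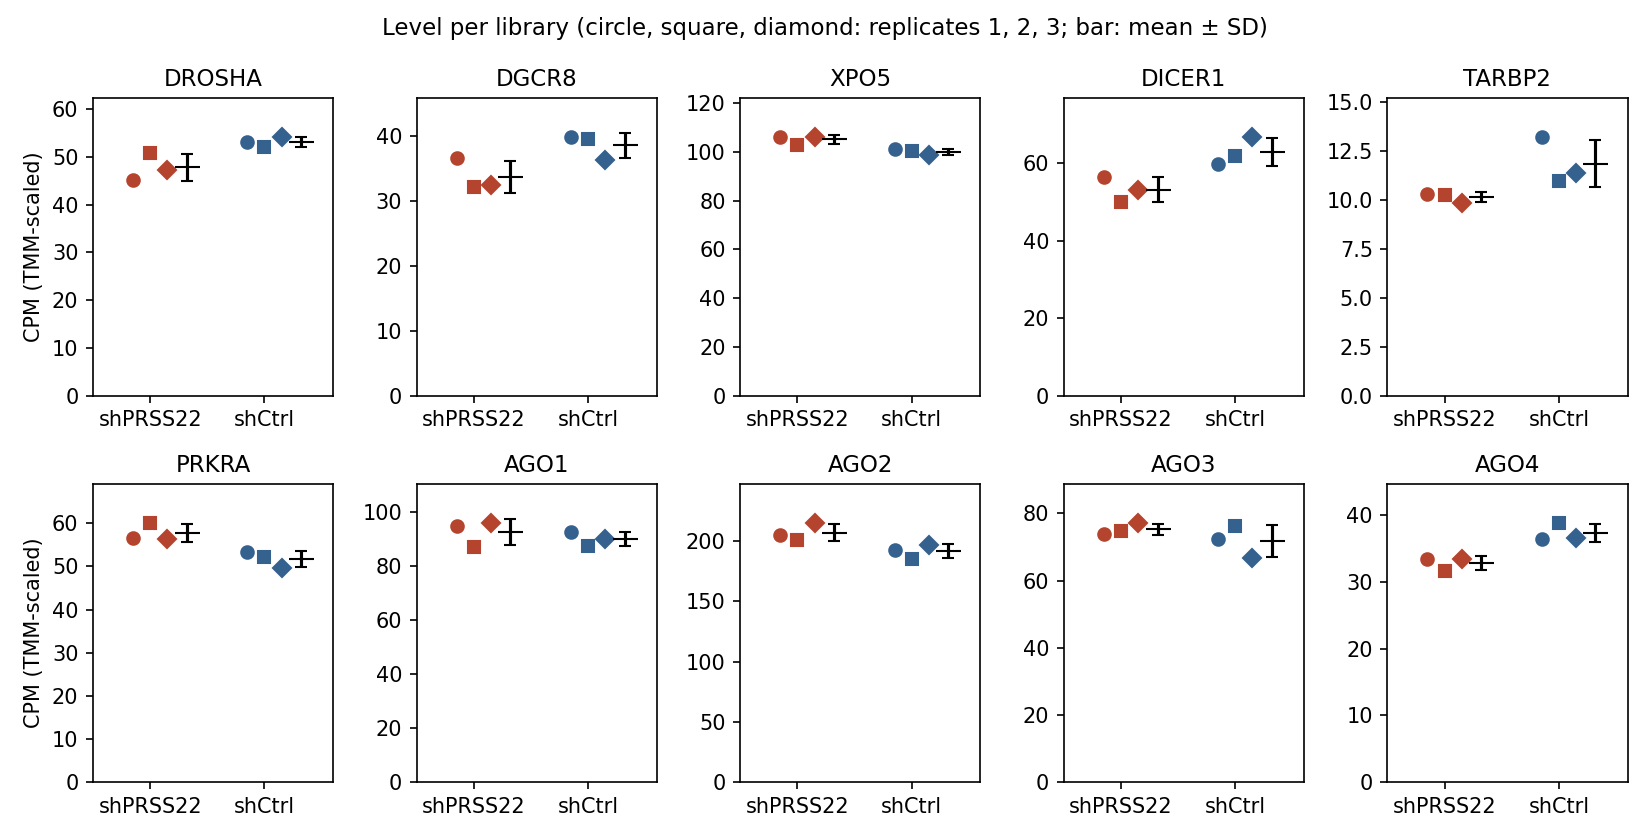
Level of each of the 10 genes in CPM, with shPRSS22 libraries left (red) and shCtrl libraries right (blue); symbols mark replicates 1 to 3 and the bar gives mean ± SD. DROSHA, DICER1, TARBP2 and AGO4 lie lower and XPO5, PRKRA and AGO2 higher in every shPRSS22 library than in any shCtrl library. DGCR8, AGO1 and AGO3 overlap. TARBP2 and XPO5 were not called, whereas DGCR8 was.

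DROSHA, the ribonuclease III enzyme that makes the first cut, had 45.1, 50.9 and 47.3 CPM in shPRSS22 replicates 1 to 3, against 53.1, 52.0 and 54.2 CPM in shCtrl replicates 1 to 3. Every knockdown library was below every control library, with replicate 1 the lowest. The means were 47.8 ± 2.91 and 53.1 ± 1.08 CPM (SD, n = 3 each), a log2 fold change of -0.15 (SE 0.052, edgeR adjusted p = 0.0187). Dropping shPRSS22 replicate 1 ended the call (-0.11, adjusted p = 0.13), as did dropping shCtrl replicate 3 (-0.14, adjusted p = 0.0756). DROSHA lies on the minus strand of chromosome 5 from 31400497 to 31532196 (GRCh38, GENCODE release 29).

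DGCR8, which binds the hairpin base beside DROSHA, had 36.6, 32.2 and 32.4 CPM in shPRSS22 replicates 1 to 3, against 39.9, 39.5 and 36.3 CPM in shCtrl replicates 1 to 3. The groups overlapped, since shPRSS22 replicate 1 was above shCtrl replicate 3. The log2 fold change was -0.19 (SE 0.061, edgeR adjusted p = 0.0121). The call ended when any of 4 libraries was dropped: adjusted p became 0.0641 for shPRSS22 replicate 2, 0.0529 for shPRSS22 replicate 3, 0.0634 for shCtrl replicate 1 and 0.0561 for shCtrl replicate 2. The ratio of DROSHA to DGCR8 in TPM, a unit per transcript length, was 1.34 ± 0.182 in shPRSS22 and 1.27 ± 0.0876 in shCtrl libraries, and the groups overlapped.

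The DGCR8 transcript itself carries microRNA hairpins, and its cleavage by DROSHA is a known feedback within the Microprocessor. The mature sequences are shown because they lie within the exons counted for DGCR8 on the plus strand of chromosome 22 (RefSeq, GRCh38.p14), with the seed, bases 2 to 8, in capitals.
hsa-miR-1306-5p: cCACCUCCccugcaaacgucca
hsa-miR-1306-3p: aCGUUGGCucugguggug
hsa-miR-3618: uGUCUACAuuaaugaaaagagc
The miR-1306 arms lie at chr22:20086072-20086093 and chr22:20086112-20086129, within the coding sequence, and miR-3618 at chr22:20085797-20085818, in an exon but outside the coding sequence. Their abundance was not measured here. DGCR8 exons also overlap those of AC006547.2 on the opposite strand. No strand marking is described for these libraries, so those reads cannot be told apart.

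XPO5, the exporter of hairpin precursors, had 106, 103 and 106 CPM in shPRSS22 replicates 1 to 3, against 101, 100.2 and 98.5 CPM in shCtrl replicates 1 to 3. All knockdown libraries were above all control libraries, yet the difference did not pass the test (log2 fold change 0.07, SE 0.038, edgeR adjusted p = 0.14). Its exons partly overlap those of POLR1C on the opposite strand. XPO5 had 33.6 ± 1.31 TPM in shPRSS22 and 31.7 ± 0.27 TPM in shCtrl, the second highest level of the 10 genes in each group.

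DICER1, which cuts the exported hairpin to its mature length, had the smallest adjusted p of the 10 genes. It had 56.6, 50.0 and 53.0 CPM in shPRSS22 replicates 1 to 3, against 59.8, 61.8 and 66.8 CPM in shCtrl replicates 1 to 3. The groups did not overlap, and shPRSS22 replicate 1 was nearest to the controls. The means were 53.2 ± 3.31 and 62.8 ± 3.6 CPM (SD, n = 3 each), a log2 fold change of -0.24 (SE 0.052, edgeR adjusted p = 4.63e-04). Without each library in turn the log2 fold change ran from -0.29 to -0.19, and the largest adjusted p was 0.0104. The authors' deposited table gives DICER1 a log2 fold change of -0.24 and a q-value of 0.00622, the only q-value under 0.05 among the 10 genes, where 18.6% of the genes with a q-value were under it. Nonetheless 27.9% of all tested genes had a larger absolute fold change than DICER1.

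DICER1 messenger RNA is a reported target of miR-103 and miR-107, which share a seed. These microRNAs lie in introns of PANK3 and PANK1, pantothenate kinase genes measured in the same libraries. They are printed with the seed in capitals (RefSeq, GRCh38.p14).
hsa-miR-103a-3p: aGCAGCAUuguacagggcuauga
hsa-miR-107: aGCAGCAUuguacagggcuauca
The miR-103a arm of PANK3 lies at chr5:168560904-168560926 and miR-107 at chr10:89592756-89592778, both on the minus strand. The DNA letters that pair with this seed, ATGCTGC, were searched on the transcript strand of the longest annotated DICER1 3' UTR, of 4270 bases (GENCODE release 29). They occurred 5 times, and the first 3 windows of 30 bases on the minus strand of chromosome 14 (GRCh38) are shown with the match in capitals.
chr14:95089455-95089484: agacatatcacacctaaaatATGCTGCaga
chr14:95088854-95088883: tgaacttgatgcttcgtggaATGCTGCatt
chr14:95087650-95087679: tgctttccgcagtcctaactATGCTGCgtt
At least 1 match stood in 12.4% of 19133 human 3' UTRs, 1 per gene, and in 27.5% of the 1693 whose length was near that of DICER1. The letters that pair with the let-7 seed, CTACCTC, were searched in the same way. They did not occur in this DICER1 3' UTR, while 9.71% of all these 3' UTRs and 22.5% of those of like length held them. These searches cover 3' UTRs only, so they do not speak to let-7 pairing elsewhere in the transcript. A match is a description of these letters and says nothing of binding in these cells.

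TRBP and PACT are paralogous partners of DICER1. TARBP2, encoding TRBP, had 10.3, 10.3 and 9.86 CPM in shPRSS22 replicates 1 to 3, against 13.2, 11 and 11.4 CPM in shCtrl replicates 1 to 3. The gene had 151 to 198 counts per library. All knockdown libraries were lower, but it did not pass (log2 fold change -0.22, SE 0.1, edgeR adjusted p = 0.0748). Dropping shCtrl replicate 1 brought the value to -0.14 (adjusted p = 0.363).

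PRKRA, encoding PACT, which is also known as an activator of the kinase PKR, had 56.6, 60.1 and 56.4 CPM in shPRSS22 replicates 1 to 3, against 53.5, 52.1 and 49.6 CPM in shCtrl replicates 1 to 3. Every knockdown library was above every control library. The log2 fold change was 0.16 (SE 0.049, edgeR adjusted p = 0.0116). Dropping shPRSS22 replicate 2 (adjusted p = 0.0591) or shCtrl replicate 3 (0.0686) ended the call. PRKRA exons partly overlap those of PJVK (132 bases) and AC009948.1 (85 bases) on the opposite strand. Opposite-strand exons also overlap those of DICER1 (DICER1-AS1, 80 bases), AGO1 (AL139286.2, 396 bases), AGO3 (AL138787.2, 86 bases) and TARBP2 (AC023509.4, 16 bases). AGO2 exons overlap those of AC067931.1 on the same strand, by 47 bases.

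DICER1 was lower relative to PRKRA in every shPRSS22 library, while its ratio to TARBP2 overlapped between groups. The ratio of DICER1 to PRKRA in TPM was 0.134 ± 0.0122 in shPRSS22 and 0.176 ± 0.0179 in shCtrl libraries (SD, n = 3 each), without overlap. The ratio of DICER1 to TARBP2 was 0.616, 0.557 and 0.614 in shPRSS22 replicates 1 to 3, against 0.510, 0.635 and 0.672 in shCtrl replicates 1 to 3. With both partners summed, most of which is PRKRA, the ratio was 0.118, 0.0996 and 0.111 in shPRSS22 replicates 1 to 3, against 0.122, 0.135 and 0.152 in shCtrl replicates 1 to 3, without overlap. PRKRA made up 81.6% ± 0.643 of the summed TPM of PRKRA and TARBP2 in shPRSS22 libraries and 77.4% ± 1.35 in shCtrl libraries (SD, n = 3 each). In TPM, PRKRA was higher and DICER1 and TARBP2 lower in every shPRSS22 library than in any shCtrl library. The lack of overlap in this share and in the ratio of DICER1 to PRKRA follows from that and adds nothing to it. The ratios of DICER1 to each single partner were not among those planned. These ratios are descriptions with no test: with 3 libraries against 3, the smallest p of a two-sided exact permutation test is 0.1.

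The Argonaute genes differed in direction. AGO2, whose protein can itself cut a paired target, had 205, 201 and 215 CPM in shPRSS22 replicates 1 to 3, against 193, 185 and 197 CPM in shCtrl replicates 1 to 3. All knockdown libraries were above all control libraries. The means were 207 ± 7.23 and 192 ± 5.93 CPM (SD, n = 3 each), a log2 fold change of 0.11 (SE 0.035, edgeR adjusted p = 0.0131). It did not pass once shPRSS22 replicate 3 (0.083, adjusted p = 0.0739) or shCtrl replicate 2 (0.087, adjusted p = 0.103) was dropped.

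AGO4, an Argonaute without known target-cutting activity in human cells, had 33.5, 31.7 and 33.4 CPM in shPRSS22 replicates 1 to 3, against 36.4, 38.8 and 36.6 CPM in shCtrl replicates 1 to 3. The groups did not overlap. The log2 fold change was -0.18 (SE 0.058, edgeR adjusted p = 0.012). Dropping shPRSS22 replicate 2 (adjusted p = 0.0592) or shCtrl replicate 2 (0.076) ended the call.

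AGO1, a guide-binding Argonaute of the same silencing complexes, had 94.7, 86.9 and 95.7 CPM in shPRSS22 replicates 1 to 3, against 92.5, 87.3 and 89.7 CPM in shCtrl replicates 1 to 3. The groups overlapped (log2 fold change 0.04, SE 0.043, edgeR adjusted p = 0.479). AGO3 had 73.9, 74.7 and 77.1 CPM in shPRSS22 replicates 1 to 3, against 72.3, 76.2 and 66.8 CPM in shCtrl replicates 1 to 3. They overlapped too (log2 fold change 0.07, SE 0.047, edgeR adjusted p = 0.26). The estimated counts of AGO1 and AGO3 carried decimals in 3 and 4 libraries, a sign of reads shared with other transcripts, and those of the other 8 genes in none.

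AGO4, AGO1 and AGO3 are neighbours on the plus strand of chromosome 1 (GRCh38, GENCODE release 29). AGO4 runs from 35808172 to 35857890, AGO1 from 35869808 to 35930528 and AGO3 from 35930718 to 36072500, with 11917 bases between the first pair and 189 between the second. AGO4 was thus the member of the cluster that was lower, while the values of AGO1 and AGO3 were slightly higher and not called.

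The make-up of the Argonaute transcripts was compared per length. AGO2 held 47.2%, 47.6% and 47.9% of the summed TPM of the 4 genes in shPRSS22 replicates 1 to 3, against 44.8%, 44.2% and 46.5% in shCtrl replicates 1 to 3. AGO4 held 16.0%, 15.9% and 15.5% in shPRSS22, against 18.0%, 19.4% and 18.4% in shCtrl. Neither share overlapped between groups, while the shares of AGO1 and AGO3 did. The summed level was 49.4 ± 2.38 TPM in shPRSS22 and 47.9 ± 0.648 TPM in shCtrl (SD, n = 3 each), a difference within the spread of the libraries.

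**Figure D2:**
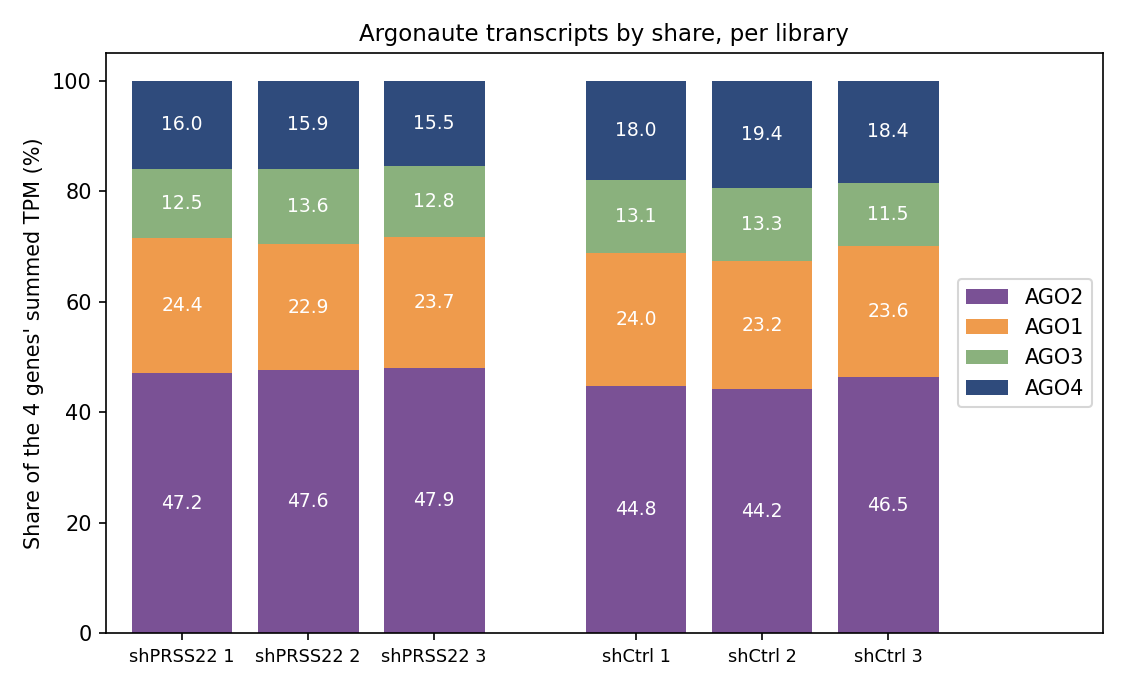
Share of each Argonaute gene in the summed TPM of the 4 genes (percent, linear axis), 1 bar per library, shPRSS22 left and shCtrl right. The AGO2 block is larger in every shPRSS22 library (47.2% to 47.9%) than in any shCtrl library (44.2% to 46.5%), and the AGO4 block is smaller.

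Across the 10 genes the level in TPM spanned from PRKRA, at 62.8 ± 0.97 in shPRSS22 and 55.9 ± 1.93 in shCtrl libraries, down to AGO3, at 6.40 ± 0.164 and 6.05 ± 0.423 (SD, n = 3 each). In shPRSS22 libraries the order of mean TPM was PRKRA, XPO5, AGO2, DROSHA, DGCR8, TARBP2, AGO1, DICER1, AGO4 and AGO3. DGCR8 and TARBP2, and DICER1 and AGO4, overlapped there in their library ranges. In shCtrl libraries the order was the same except that DROSHA stood before AGO2, at 21.7 ± 0.393 and 21.6 ± 0.795 TPM, and those neighbours overlapped, as did DGCR8 and TARBP2. DICER1 stood at 8.42 ± 0.68 TPM in shPRSS22 and 9.83 ± 0.669 TPM in shCtrl. These levels rest on the authors' transcript lengths: counts and FPKM together imply about 19050 bases for AGO3, 14110 for AGO2, 12650 for AGO1 and 6680 for AGO4, mostly 3' UTR in the annotation, against 1150 for TARBP2 and 1470 for PRKRA. The 3' ends in use in these cells were not tested.

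**Figure D3:**
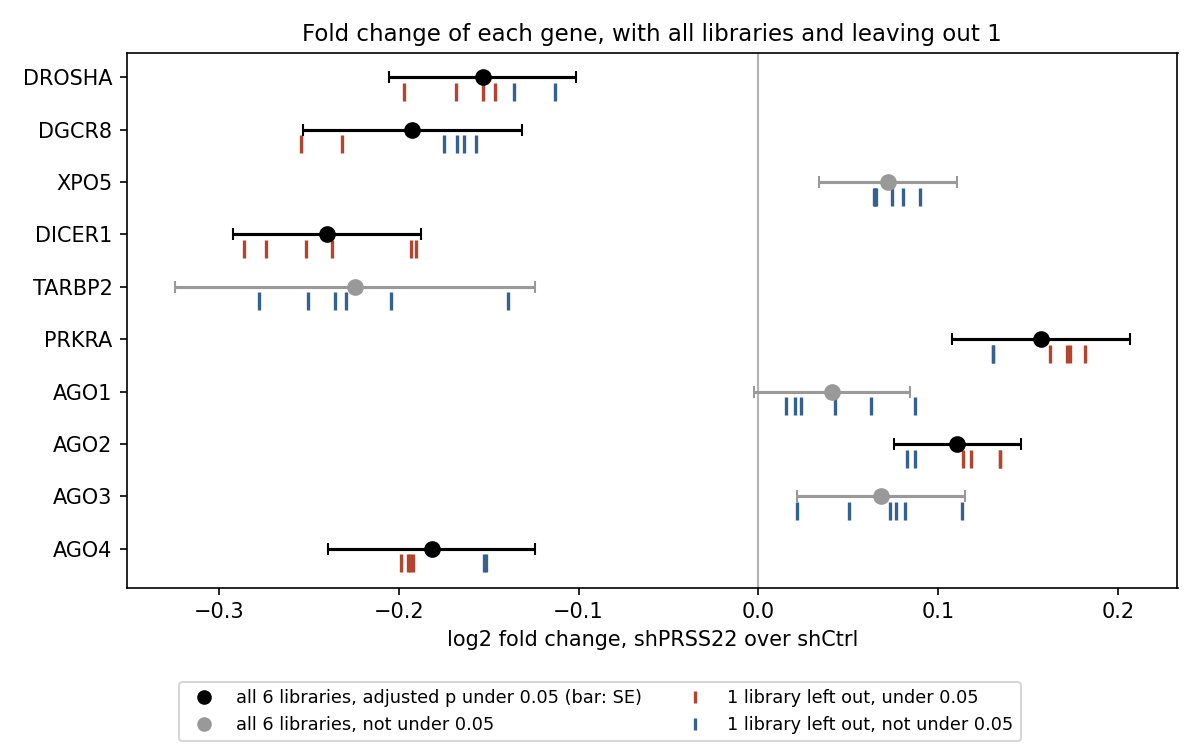
Log2 fold change of shPRSS22 over shCtrl for each gene: circles give the fit of all 6 libraries with its SE, black where adjusted p was under 0.05, and ticks give the fits that leave out 1 library. Every tick of DICER1 is called, and for no gene does a tick cross 0.

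The genes whose profile over the 6 libraries was nearest to that of DICER1 were ADAMTSL5, SCAI and ZNF304. Among 9978 genes with at least 10 CPM, their centred log2 CPM differed from that of DICER1 by a root mean square of 0.032, 0.036 and 0.036, where the DICER1 profile itself has one of 0.14. SCAI and ZNF304 had log2 fold changes of -0.19 and -0.24 with edgeR adjusted p = 0.011 and 0.0229. ADAMTSL5, at -0.20, did not pass (adjusted p = 0.0716). With 6 libraries this likeness is a description only.

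Genes that act beside these 10 were followed through 8 lists, 127 tested genes in all, of which 15 were higher and 42 lower. Each list's count is read beside the 39.1% called among all tested genes, 19.9% higher and 19.3% lower. DESeq2 called 26.7% of the 12705 genes to which it gave an adjusted p. Larger counts make small shifts easier to call, and these shares are not matched for level. The median over all tested genes was 30.6 CPM. All genes of the RAN list below and all primary processing cofactors but SMAD1 and METTL3 averaged more. Among cofactors of primary microRNA processing 9 of 21 fell and none rose, a share of 42.9% lower beside the 19.3% called lower among all tested genes. DESeq2 called 7, all lower, and dropping 1 library left 6 to 9, all lower. The list's median log2 fold change was -0.08, against -0.0056 over all tested genes. HNRNPA1, which remodels certain primary hairpins, fell to 1085 ± 68.2 CPM in shPRSS22, against 1341 ± 30.6 CPM in shCtrl (log2 fold change -0.30, edgeR adjusted p = 1.82e-07), although its many pseudogenes make its counts less certain. ADAR, the adenosine deaminase of double-stranded RNA, fell by 0.18 on the log2 scale. The paired helicases DDX5 and DDX17, Microprocessor partners chosen for mention after their values were seen, each fell by 0.12 on the log2 scale, and the DDX5 call ended once shCtrl replicate 3 was dropped (adjusted p = 0.0597).

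The RAN cycle and nuclear export list held 10 called genes of 13 (76.9%), with 3 higher and 7 lower (median -0.11). DESeq2 called 6 of them, losing CSE1L, RANGAP1, XPO6 and XPO7. XPO1, the exporter of many proteins and some RNAs, fell to 229 ± 5.77 CPM in shPRSS22, against 271 ± 5.78 CPM in shCtrl (log2 fold change -0.24, edgeR adjusted p = 5.77e-07), and IPO8, an importin reported to act with Argonautes, fell by 0.19. The transfer RNA exporter XPOT (0.22) and the RAN exchange factor RCC1 (0.18) rose. RAN itself, which XPO5 needs to hold its cargo, was at 380 ± 15.1 CPM in shPRSS22 and 390 ± 0.801 CPM in shCtrl and did not pass (adjusted p = 0.364).

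Argonaute loading and RISC cofactors were called in 6 of 19 genes (31.6%), 1 higher and 5 lower (median -0.0087). The chaperone HSPA8, part of the machinery that opens Argonaute for loading, fell by 0.24 on the log2 scale, and it too has many pseudogenes. TSNAX, a subunit of the C3PO nuclease that removes passenger strands, fell to 84.7 ± 3.09 CPM in shPRSS22, against 99.95 ± 5.06 CPM in shCtrl (-0.24, edgeR adjusted p = 4.88e-05). Its partner TSN rose by 0.087 with adjusted p = 0.0469. Dropping any single library ended that call, with adjusted p from 0.0533 to 0.135, as did DESeq2 (0.13).

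Effectors of silencing, the TNRC6 scaffold, deadenylase and decapping genes, were called in 10 of 32 (31.25%), with 3 higher and 7 lower (median -0.022). DESeq2 called 5, losing CNOT9, DCP1A, EDC4, LIMD1 and PAN3. The poly(A)-binding protein gene PABPC1, another gene with pseudogenes, fell to 2212 ± 92.7 CPM in shPRSS22, against 2569 ± 44.8 CPM in shCtrl (log2 fold change -0.22). DDX6, a helicase that links the complex to decapping, fell by 0.18. AJUBA, a LIM protein reported to join the silencing complex, rose by 0.41, and the decapping cofactor DCP1A by 0.15, a call that DESeq2 did not make (adjusted p = 0.0618). Of the scaffold genes TNRC6B was called (-0.17), while TNRC6A (-0.0033) and TNRC6C (-0.049) did not pass.

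Tailing, trimming and decay genes were called in 6 of 11 tested (54.5%), 4 higher and 2 lower (median 0.084). Dropping shPRSS22 replicate 1 left 3, without PARN, TUT7 and ZSWIM8, and DESeq2 left 2, without TENT2 as well. ERI1, an exonuclease, and TUT7, a uridylyltransferase of precursor hairpins, rose by 0.17 and 0.15. The TUT7 call ended when shPRSS22 replicate 1 (adjusted p = 0.0523) or shCtrl replicate 3 (0.0506) was dropped and with DESeq2 (0.0571). ZC3H12A, a ribonuclease reported to cut precursor loops, fell to 5.88 ± 0.637 CPM in shPRSS22, against 9.04 ± 1.54 CPM in shCtrl (log2 fold change -0.62, edgeR adjusted p = 3.33e-04). PARN, a 3' trimming deadenylase, fell by 0.16, a call that ended on dropping shPRSS22 replicate 1 (adjusted p = 0.0588), shPRSS22 replicate 2 (0.102) or shCtrl replicate 1 (-0.096, 0.202) and with DESeq2 (0.0874). LIN28A and LIN28B, which block let-7 maturation, had only 19 and 5 counts over the 6 libraries and were not tested.

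Of 12 PIWI pathway genes, which serve the germline small RNA route, 4 had enough counts to test and PLD6 alone was called. PLD6, also a mitochondrial lipid hydrolase, fell to 6.21 ± 0.876 CPM in shPRSS22, against 9.83 ± 1.19 CPM in shCtrl (log2 fold change -0.66, edgeR adjusted p = 7.66e-05). PIWIL1 had no count in any library, and PIWIL2 and PIWIL4 averaged 0.755 and 1.41 CPM over all libraries.

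Sensors of double-stranded RNA were called in 6 of 14 tested genes (42.9%), 1 higher and 5 lower (median -0.053), and by DESeq2 in 4, 1 higher and 3 lower. OAS3, a synthetase that switches on RNase L, fell to 19.5 ± 2.10 CPM in shPRSS22, against 32.8 ± 1.18 CPM in shCtrl (log2 fold change -0.75, edgeR adjusted p = 4.17e-10). OAS1 fell by 0.62 at about 2 CPM, a call that ended in 4 of the 6 fits that dropped a library (adjusted p from 0.0621 for shPRSS22 replicate 3 to 0.114 for shCtrl replicate 2, with 0.071 for shPRSS22 replicate 1 and 0.0665 for shCtrl replicate 1) and with DESeq2 (0.139). STAU1, a double-stranded RNA-binding protein, rose by 0.16. EIF2AK2, which encodes PKR, the kinase that PACT activates and TRBP inhibits, was named after its value was seen: it had 143 ± 3.59 CPM in shPRSS22 and 159 ± 4.65 CPM in shCtrl (-0.16, edgeR adjusted p = 7.04e-04).

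Host genes of microRNAs were called in 9 of 13 tested (69.2%), 3 higher and 6 lower (median -0.052). That count was 4 without shPRSS22 replicate 3, where COPZ1, CTDSP2, EVL, MCM7 and PANK1 were lost, and 5 without shCtrl replicate 2, where COPZ1, CTDSP2, EVL and MCM7 were. DESeq2 called 3, losing EGFL7 and all 5 of the first group. SREBF2, the sterol regulator whose intron holds miR-33a, rose to 219 ± 5.61 CPM in shPRSS22, against 180.0 ± 2.51 CPM in shCtrl (log2 fold change 0.28, edgeR adjusted p = 4.84e-08). PANK3, host of miR-103a, rose to 164 ± 6.62 CPM in shPRSS22, against 143 ± 2.13 CPM in shCtrl (0.19). PANK1, host of miR-107, fell to 14.3 ± 1.14 CPM in shPRSS22, against 17 ± 1.31 CPM in shCtrl (-0.25, edgeR adjusted p = 0.0225). The PANK1 call ended on dropping shPRSS22 replicate 2 (adjusted p = 0.0848), shPRSS22 replicate 3 (0.0748) or shCtrl replicate 3 (0.146) and with DESeq2 (0.126). EVL, host of miR-342, fell by 0.30, and its call also ended in 4 of the 6 such fits (adjusted p 0.124 for shPRSS22 replicate 2, 0.0667 for shPRSS22 replicate 3, 0.119 for shCtrl replicate 1 and 0.0754 for shCtrl replicate 2) and with DESeq2 (0.154).

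Hosts of the miR-26 family, phosphatase genes singled out after their values were seen, also had differences of opposite sign. CTDSP1 had 41.0 ± 0.497 CPM in shPRSS22 and 48.3 ± 1.69 CPM in shCtrl (log2 fold change -0.24, edgeR adjusted p = 4.95e-04). CTDSP2 had 235 ± 3.30 CPM in shPRSS22 and 222 ± 4.6 CPM in shCtrl (0.087, edgeR adjusted p = 0.036). Dropping shPRSS22 replicate 1 (adjusted p = 0.0521), shPRSS22 replicate 3 (0.091), shCtrl replicate 2 (0.0948) or shCtrl replicate 3 (0.13) ended that call, as did DESeq2 (0.0733). CTDSPL, which also holds a miR-26a copy, did not pass (-0.05, adjusted p = 0.418). The microRNAs in their introns share a seed, shown in capitals (RefSeq, GRCh38.p14).
hsa-miR-26b-5p: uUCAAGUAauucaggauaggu
hsa-miR-26a-5p: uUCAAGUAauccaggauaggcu
The miR-26b arm lies at chr2:218402657-218402677 in CTDSP1 and the miR-26a arm at chr12:57824658-57824679 in CTDSP2. A change in a host messenger RNA is not a measurement of the microRNA.

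**Figure D4:**
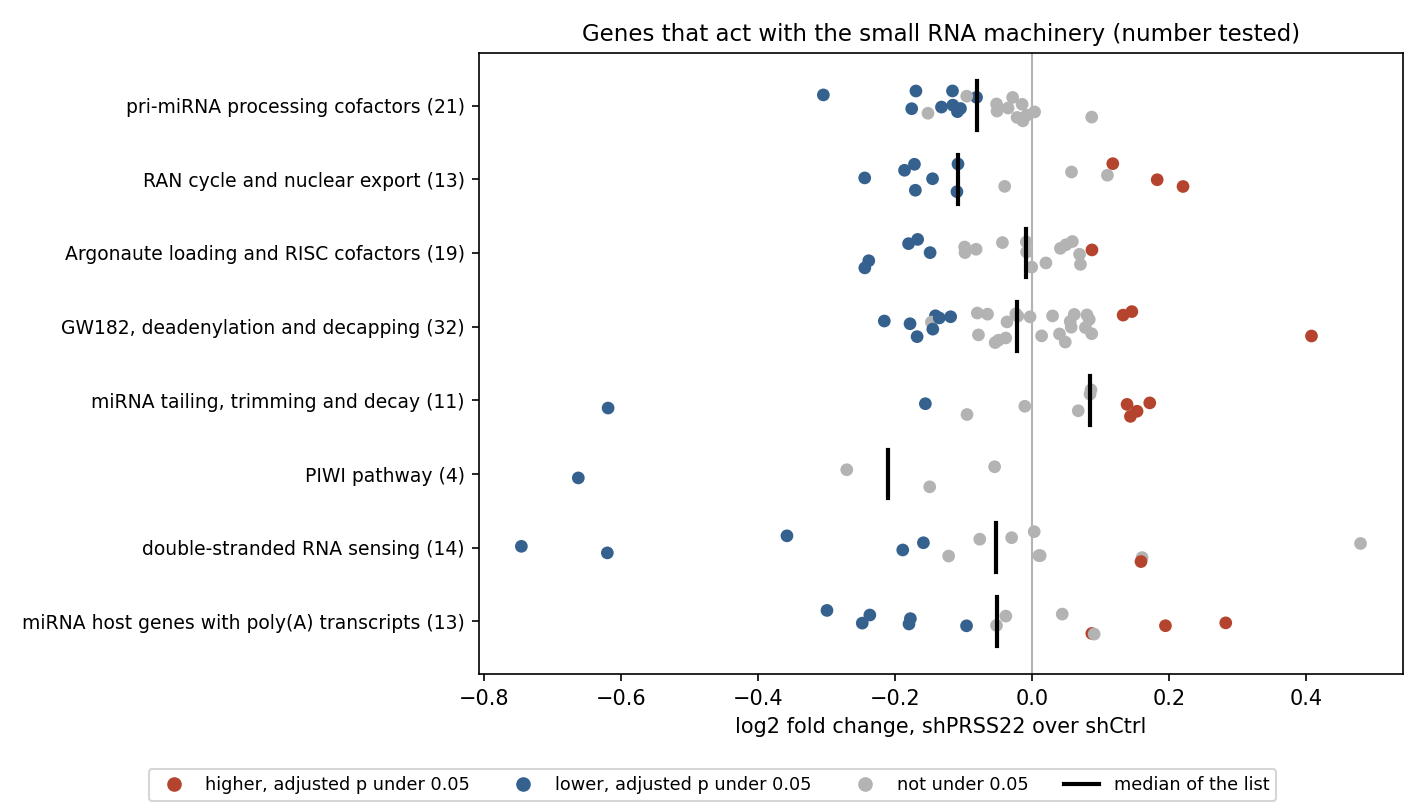
Log2 fold change of shPRSS22 over shCtrl for each tested gene of the 8 lists, 1 point per gene, red where higher and blue where lower at adjusted p under 0.05; the black bar is the list's median. Cofactors of primary microRNA processing hold 9 lower and no higher genes, and the tailing and decay list has the highest median, 0.084.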

How the data were processed

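The authors deposited 1 table with estimated counts, FPKM, TPM and normalised counts (a scaled signal, not used) per library, per the file headers. Their own comparison is there too, with a deposited log2 fold change, q-value and p-value for 16977 of the 17269 genes. The submitters' processing notes name GRCh38.p13, RSEM 1.3.1 and, among aligners, HISAT2 2.2.1 and Bowtie2 2.3.4.3, with no role or order. Here estimated counts were rounded to whole numbers. Genes passing filterByExpr were tested with edgeR 4.0.16 (R 4.3.3, TMM, robust quasi-likelihood fit, two-sided, Benjamini-Hochberg over 13104 genes, threshold 0.05). The fit was also run on simulated counts with 200 changed genes and the same variation beyond sampling for every gene. In the data 5126 genes were called, so that run does not gauge calls as numerous as these. The standard error is the log2 fold change divided by the square root of F. CPM uses the TMM-scaled total. Deposited TPM served for levels between genes. DESeq2 1.42.0, other scalings and filters, a replicate block and leaving out each library were the alternatives. Chi-square per gene was 1.80 to 1.85 between shCtrl replicates and 2.15 to 3.05 between shPRSS22 replicates, where sampling alone gives about 1. The coefficient of variation beyond sampling in the edgeR fit was 2.97%. Each library was treated as 1 replicate, which these values cannot establish, since such spread may be technical. Of each list, up to 2 called genes per direction with at least 1 CPM were named. These were the ones with the largest rise or fall, so they are extremes of their list and not typical members. Marker levels used log2(CPM + 0.5). The genes and lists were chosen with earlier results of these data known. Of the 32 listed host genes 14 had a row, and HENMT1 had none; the others were not analysed here.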

Additional observations from a re-analysis of the deposited data

How the results depend on the processing

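Over 12 alternatives for each of the 10 genes, 104 of 120 values kept direction and call, 16 lost the call and none reversed. DESeq2 called 2 of the 10 genes, DICER1 lower (adjusted p = 0.00471) and AGO2 higher (adjusted p = 0.0393), so 1 in each direction. It called 26.7% of the 12705 genes to which it gave an adjusted p, a set that differs from the genes tested with edgeR. It called 8 list genes higher and 26 lower, and 1760 genes higher and 1637 lower of all, against 2603 and 2523 with edgeR. Without 1 library edgeR called 3 to 5 of the 10 genes, 1 to 2 higher and 2 to 3 lower. Without shCtrl replicate 2 or shPRSS22 replicate 2 it called 3. The scalings, the filters and the replicate block each called 6. With the replicate number as a block 2782 genes were higher and 2747 lower, and no call among the 10 changed. The numbers did not pair the libraries: correlations of same-numbered deviations were 0.019, 0.033 and 0.091, and not every library correlated best with its own number. In CPM, not per length, the AGO4 share differed by -1.48 percentage points (TPM: -2.82) and the ratio of DICER1 to TARBP2 plus PRKRA by -0.21 (TPM: -0.027), since length weights differ. TARBP2 had the fewest counts of the 10 genes and the largest standard error.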
